A study of Mus musculus with 8 samples.

Results

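The genes described here are cytokines of the interleukin 10 (IL-10) family and receptor chains that bind them. All 7 named genes, Il10, Il19, Il20, Il24, Il22, Il20ra and Il22ra2, were measured, of 6986 genes tested, and each was read by 1 probe set whose platform annotation gives that gene alone. They were chosen by family membership, with earlier results of these data known. Expression came from Affymetrix Mouse Gene 2.0 ST arrays hybridised with RNA of CD4+CD25+ lymphocytes, the T cell fraction that holds most regulatory T cells (Treg), sorted from the para-aortic lymph nodes, which receive lymph from the uterus, on day 9.5 of pregnancy. One group was 4 arrays labelled IL10-/-, from mutant mice back-crossed in a C57BL/6 colony and given oxytetracycline at 2 mg/ml in the drinking water against colitis. The other was 4 arrays labelled IL10+/+, from C57BL/6 mice, for which no antibiotic is stated, so that genotype and antibiotic cannot be told apart. Each array held a pool of RNA from 2 to 4 mice. The comparison asks how the Treg fraction of pregnancy differs in mice deficient in IL-10. All values below are log2 expression as deposited, and all differences are log2 values of the arrays labelled IL10-/- minus those labelled IL10+/+.

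IL-10 is an anti-inflammatory cytokine that Treg and other lymphocytes secrete. It binds a receptor of the chains Il10ra and Il10rb and signals through Jak1, Tyk2 and Stat3. Its relatives IL-19, IL-20 and IL-24 act mainly on epithelial cells through receptors that contain Il20ra or Il22ra1. IL-22, a product of Th17-type and innate lymphoid cells, acts on epithelium through Il22ra1 and Il10rb and is neutralised by a soluble receptor encoded by Il22ra2. In the mouse, Il10, Il19, Il20 and Il24 form a cluster on chromosome 1, while Il22, Il20ra and Il22ra2 lie on chromosome 10. Il10ra, Il10rb, Il20rb and Il22ra1 were not analysed here.

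The 8 arrays had median values of 6.97 to 7.12 over the tested genes and correlated at Pearson's r of 0.974 to 0.993 across genes, which are not independent replicates. A pair of arrays, IL10-/- replicate 2 and IL10+/+ replicate 4 as labelled, stood apart with interquartile ranges of 2.15 and 2.17 against 2.32 to 2.58 in the other 6. Results are therefore also given without this pair of arrays. The defining Treg markers Foxp3 and Il2ra and the T cell markers Cd4 and Cd3e were not analysed here. Ctla4 and Ikzf2, which Treg express, averaged 11.22 and 11.35 in the arrays labelled IL10-/- and 11.32 and 11.54 in the arrays labelled IL10+/+. Of the other 3 measured Treg genes, Ikzf4 differed by -0.10, the integrin gene Itgae by 0.14 and the cytokine signalling inhibitor gene Socs2 by 0.56 (SE 0.27), and 0 of the 5 passed the test described below. In such bulk samples, a change in the share of cells that express a gene and a change in the RNA of each cell cannot be told apart.

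Il10 had the largest difference of the family and was higher in the arrays labelled IL10-/-. None of the other 6 genes approached it in size, and 0 of the 7 passed the test over all genes (limma, adjusted p under 0.05). The share of all tested genes past that threshold was 0.0286%, which is the 2 genes Ctse and Efcab2, both higher; they are named because they are so few. At an unadjusted p under 0.05 1 family member, Il10, was higher, as were 3.19% of all genes. In direction, 6 of the 7 genes had a positive difference and Il22ra2 a negative one (Il20 and Il20ra turned negative with quantile normalization, and Il20ra also with arrays centred on the median). The median of the 7 was 0.09, while 50.8% of all genes had a positive difference and the median of all genes was 0.00.

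Il10 read 9.35, 8.65, 9.42 and 9.25 in the arrays labelled IL10-/- (replicates 1 to 4), against 8.27, 8.51, 8.14 and 7.50 in those labelled IL10+/+. The groups did not overlap, although the lowest array labelled IL10-/- lay only just above the highest array labelled IL10+/+. Non-overlap with the arrays labelled IL10-/- on top was found for 1.83% of all genes. Group means of 9.17 ± 0.35 for IL10-/- and 8.10 ± 0.43 for IL10+/+ (SD, n = 4 each) gave a difference of 1.06 (SE 0.22; 95% interval 0.57 to 1.56), which is 2.09-fold. Among the 6986 genes this difference was number 12 by size and number 8 by unadjusted p. The exact two-sided permutation test gave p = 0.0286, the smallest that 4 against 4 arrays allow, and the adjusted p over all genes by limma was 0.405.

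Il10 is the gene that the mutant mice lack in functional form, so its signal was the first check of the labels. A stronger signal in the arrays labelled IL10-/- is opposite to the loss of a transcript. The labels do not say which part of Il10 was altered, nor does the value table say which part its probe set reads, so this signal cannot settle whether the labels are right. Directions given here rest on the labels as deposited. A signal at Il10 shows transcript that this probe set can bind, and not IL-10 protein.

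Within each group, Il10 lay farthest from the group mean in the array that stood apart. Il10 was lowest in IL10-/- replicate 2 among its group, 0.52 below the group mean, and lowest in IL10+/+ replicate 4 among its group, 0.61 below the group mean. Of all genes, 12.9% were likewise lowest in both of these arrays. Without them Il10 averaged 9.34 ± 0.09 in the arrays labelled IL10-/- and 8.31 ± 0.19 in the arrays labelled IL10+/+ (SD, n = 3 each), a difference of 1.04 (limma, SE 0.12, adjusted p = 0.0678). The difference thus stayed at about the same size in the 6 remaining arrays while its SE was smaller, and it did not pass the threshold in either fit.

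**Figure D1:**
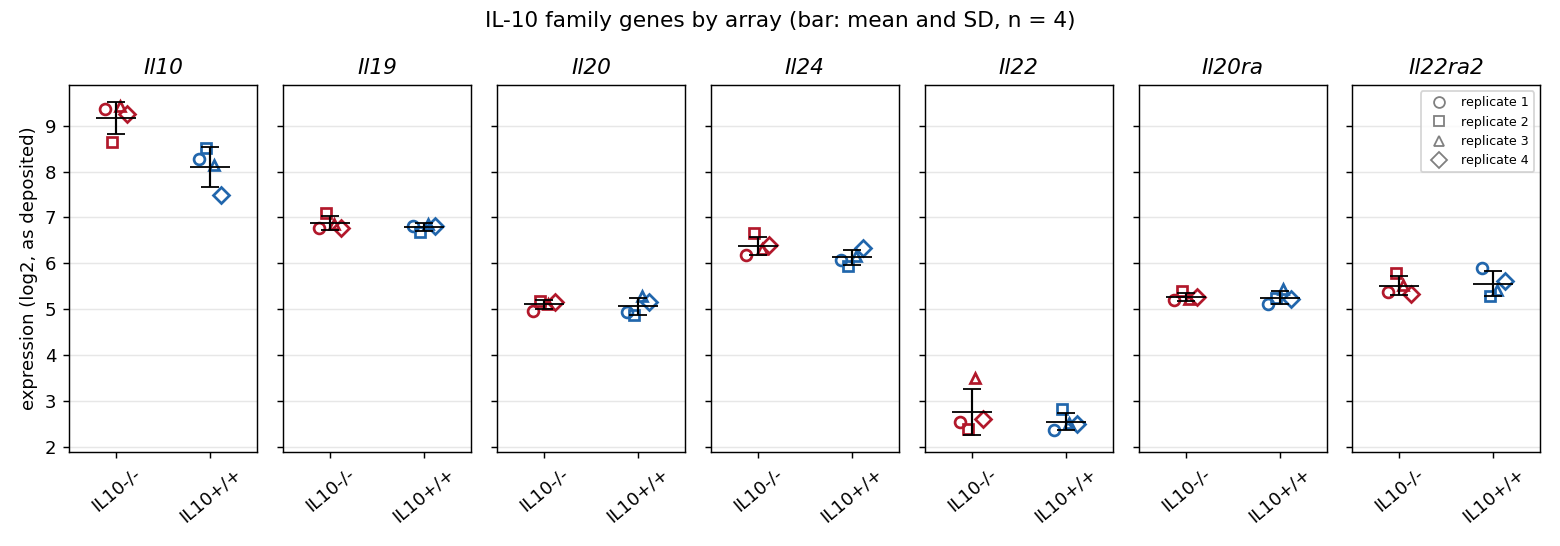
Log2 expression of the 7 IL-10 family genes on each array (symbols mark the replicate number), with group means and SD as black bars (n = 4), the arrays labelled IL10-/- to the left of those labelled IL10+/+. Il10 is the gene whose groups are separate, from 8.65 to 9.42 against 7.50 to 8.51, and the other 6 overlap.

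The IL-20 subfamily cytokine genes Il19, Il20 and Il24, which share the Il10 cluster, showed no difference of that size. Il24, whose product signals to epithelial cells, came next to Il10 in the strength of its difference. It read 6.19, 6.65, 6.31 and 6.40 in the arrays labelled IL10-/-, against 6.08, 5.95, 6.17 and 6.33 in those labelled IL10+/+. Replicates 1 to 3 of the arrays labelled IL10+/+ lay below all arrays labelled IL10-/-, and replicate 4 lay among them. The difference was 0.26 (SE 0.13; 95% interval -0.02 to 0.54; limma, adjusted p = 0.999), with an exact permutation p of 0.0857. Like 20.1% of all genes, Il24 was highest in its group in both arrays that stood apart. Without them its values ran from 6.19 to 6.40 in the arrays labelled IL10-/- and from 5.95 to 6.17 in the arrays labelled IL10+/+, with a difference of 0.23.

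Il19 encodes a cytokine of myeloid and epithelial cells and read 6.77, 7.11, 6.87 and 6.77 in the arrays labelled IL10-/-, against 6.81, 6.67, 6.86 and 6.81 in those labelled IL10+/+. Its highest value, in IL10-/- replicate 2, carried most of a difference of 0.09 (SE 0.11; 95% interval -0.15 to 0.32; exact permutation p = 0.429), which was 0.02 without both arrays that stood apart. Il20, which encodes a cytokine of keratinocytes and monocytes, read 4.97, 5.19, 5.12 and 5.16 in the arrays labelled IL10-/-, against 4.94, 4.89, 5.29 and 5.15 in those labelled IL10+/+. The groups interleaved, and the difference was 0.04 (SE 0.12; 95% interval -0.21 to 0.30; exact permutation p = 0.743). The intervals of Il19 and Il20 leave room for changes of signal of up to 0.32 and 0.30, less than that measured for Il10. Whether these dim genes were expressed is not shown, so the intervals bound the probe set signal and not the transcript.

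**Figure D2:**
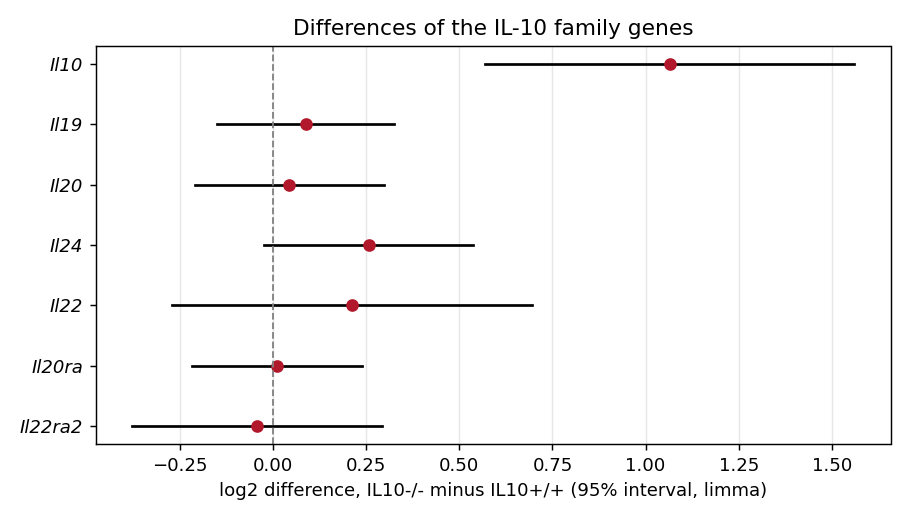
Log2 difference of each IL-10 family gene, arrays labelled IL10-/- minus arrays labelled IL10+/+ (points), with the 95% interval of the limma fit (lines, 4 arrays a group). The interval of Il10, from 0.57 to 1.56, lies above 0 before any adjustment, and those of the other 6 genes include 0.

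Because Il10 and these relatives were read on the same arrays, Il10 was also set against each of them within the array, where a shift of the whole array cancels. A difference in scale does not cancel, such as the narrower interquartile range of the arrays that stood apart. Il10 minus Il19 was 2.58, 1.55, 2.55 and 2.48 in the arrays labelled IL10-/-, against 1.46, 1.83, 1.28 and 0.68 in those labelled IL10+/+. The value of IL10-/- replicate 2 fell below that of IL10+/+ replicate 2, and the other 3 arrays labelled IL10-/- lay above all of the other group. The means differed by 0.98 for Il10 minus Il19, by 1.02 for Il10 minus Il20 and by 0.81 for Il10 minus Il24. Exact two-sided permutation tests gave p = 0.0571, 0.0571 and 0.0857, and adjusted over these 3 pairs each was 0.0857. The unequal change of Il10 and its relatives therefore did not pass the threshold, with IL10-/- replicate 2 the array that overlapped in all 3 pairs.

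**Figure D3:**
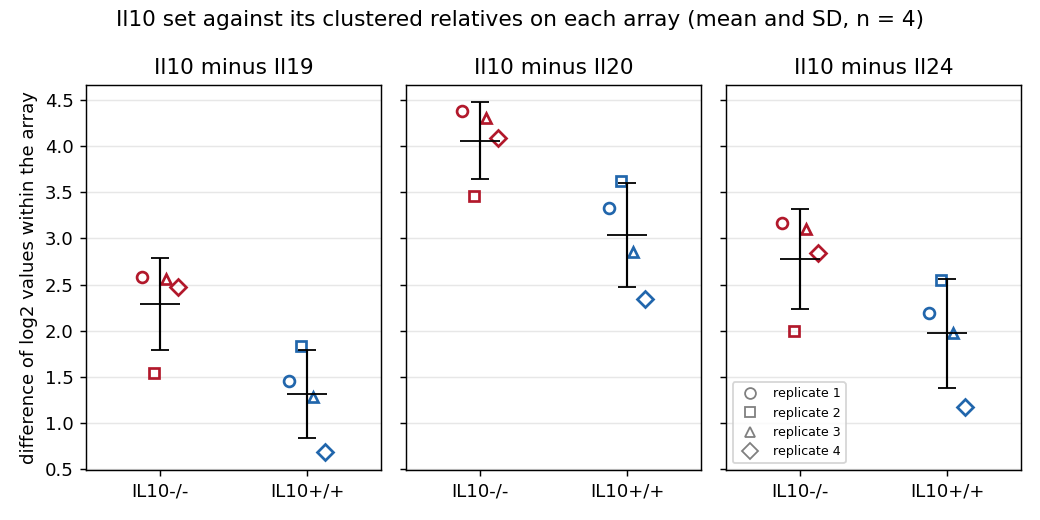
Log2 value of Il10 minus that of Il19, Il20 or Il24 within each array (symbols mark the replicate number), with group means and SD (n = 4). In each panel 3 arrays labelled IL10-/- lie above all arrays labelled IL10+/+, and IL10-/- replicate 2 lies lower, at 1.55 for Il10 minus Il19.

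The nearest 2 tested genes on each side of the cluster on chromosome 1 had smaller differences than Il10. Genes farther along the chromosome are not described here, so this does not cover the wider region. On the Il24 side these were Fcmr, which encodes a receptor for IgM and differed by -0.08, and Pigr, the polymeric immunoglobulin receptor gene, which differed by 0.13. On the Il10 side, Mapkapk2 encodes a kinase below p38 that stabilises cytokine mRNAs and differed by 0.14, with a wide 95% interval of -0.42 to 0.71. Dyrk3, a kinase gene, differed by -0.03. All 4 had overlapping groups and an adjusted p of 0.999 by limma. Mapkapk2 resembled Il10 in its spread, being lowest in IL10-/- replicate 2 (9.28) and IL10+/+ replicate 4 (8.92) of their groups.

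**Figure D4:**
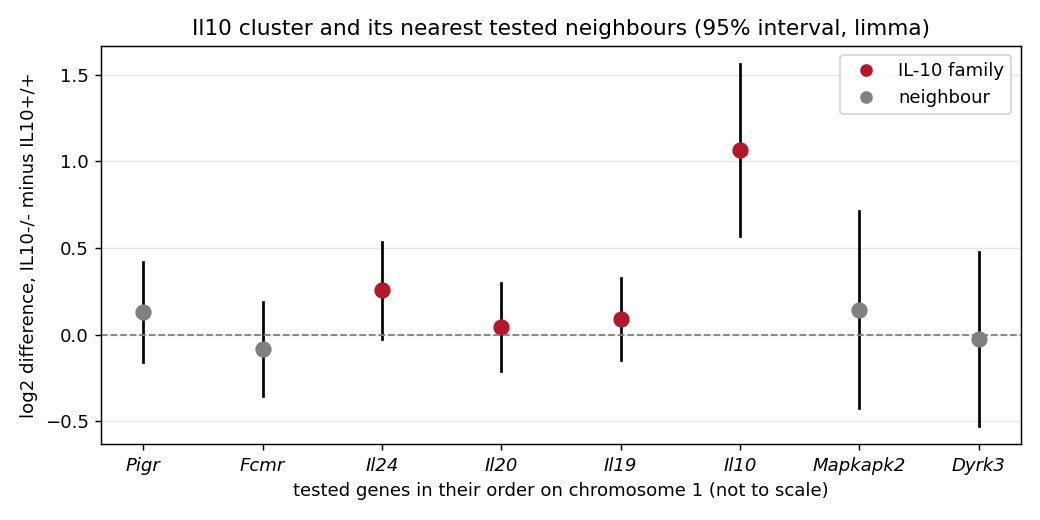
Log2 differences with 95% intervals (limma, 4 arrays a group) for the Il10 cluster and the nearest 2 tested genes on each side, in gene order on chromosome 1 and not to scale. Il10 differed by 1.06, and the other 7 genes by -0.08 to 0.26.

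Il22, the cytokine of Th17-type cells, was at the bottom of the array scale. It read 2.56, 2.40, 3.52 and 2.62 in the arrays labelled IL10-/-, against 2.38, 2.83, 2.52 and 2.50 in those labelled IL10+/+. A single array, IL10-/- replicate 3, stood above the rest, and the difference of 0.21 (SE 0.22; 95% interval -0.27 to 0.70; exact permutation p = 0.571) became -0.04 without it. C57BL/6 mice carry a second, nearly identical gene, Iltifb, whose separate probe set cannot be assumed to be specific. Iltifb read 2.85, 3.10, 3.60 and 3.14 in the arrays labelled IL10-/-, against 3.02, 2.98, 3.00 and 2.47 in those labelled IL10+/+, and was thus also highest in IL10-/- replicate 3. Its difference was 0.30 (SE 0.17; limma, adjusted p = 0.999).

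The receptor genes Il20ra and Il22ra2 had differences near 0. Il20ra, a receptor chain for IL-19, IL-20 and IL-24, read 5.20, 5.39, 5.22 and 5.27 in the arrays labelled IL10-/-, against 5.12, 5.24, 5.45 and 5.22 in those labelled IL10+/+. Its difference was 0.01 (SE 0.10; 95% interval -0.22 to 0.24; exact permutation p = 0.914), and its sign turned under other normalizations. Il22ra2, which encodes the soluble IL-22 binding protein made by dendritic cells, read 5.38, 5.80, 5.54 and 5.34 in the arrays labelled IL10-/-, against 5.91, 5.30, 5.41 and 5.61 in those labelled IL10+/+. The difference was -0.04 (SE 0.15; 95% interval -0.38 to 0.29; exact permutation p = 0.800), and it was 0.07 without IL10+/+ replicate 1, the highest array. Both genes had interleaved groups, and their intervals exclude changes of signal as large as that measured for Il10. Whether these dim genes were expressed is not shown, so the intervals bound the probe set signal and not the transcript.

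Whether the dim members were expressed at all is not shown by these values, since no detection call was used. To give the scale, the lowest probe set of each array read 2.07 to 2.25. The 226 tested olfactory receptor genes, known for their work in sensory neurons, had a 5th percentile of 2.83 to 2.92 and a 95th percentile of 6.97 to 7.26 over the 8 arrays. Il10 lay above that 95th percentile in 8 of 8 arrays. Il19, Il20, Il24, Il20ra and Il22ra2 lay between the percentiles in every array, and Il22 lay below the 5th in 7 of 8. Probe sets differ in how well they bind, so these positions are no ranking of transcript amounts.

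**Figure D5:**
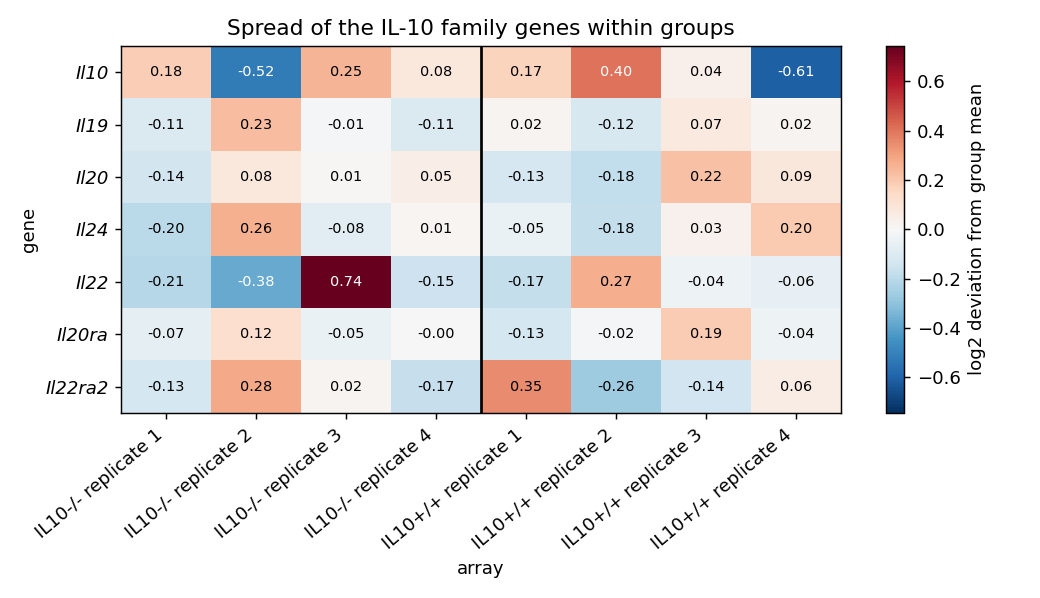
Log2 deviation of each IL-10 family gene from the mean of its group on each array, with the value printed in each cell and red for above the mean. Il10 is lowest in IL10-/- replicate 2 (-0.52) and IL10+/+ replicate 4 (-0.61), and Il22 is highest in IL10-/- replicate 3 (0.74).

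Members also differed in how far arrays of one group spread. The SD pooled over both groups was 0.39 for Il10 and 0.38 for Il22, and 0.11 to 0.24 for the other 5, against a median of 0.18 over all genes. The genes whose 8 centred values lay nearest to those of Il10 were Havcr2, which encodes the checkpoint receptor TIM-3, the glutaredoxin gene Glrx and the mitochondrial ribosomal protein gene Mrps23. Their root-mean-square distances over the 8 arrays were 0.29, 0.30 and 0.31. Centred values include the group difference, so genes near Il10 by this measure were chosen in part for a similar one. Havcr2 differed by 0.86, Glrx by 0.65 and Mrps23 by 0.57 between the groups (limma, adjusted p = 0.742, 0.999 and 0.624). Taking only deviations from the group means, the nearest genes were Trappc10, Sptlc1 and Grk6, at distances of 0.06 to 0.07, and their group differences were only -0.12, 0.06 and -0.05.

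Relatives of the family outside the 7 genes were measured in part. Of 15 further genes of class II cytokines and their receptors, 3 were measured, 2 with a positive and 1 with a negative difference, and 0 passed the test. Ifng, the interferon gamma gene, lies near Il22 on chromosome 10 and read 8.08, 7.84, 7.64 and 7.78 in the arrays labelled IL10-/-, against 7.37, 7.35, 7.30 and 7.33 in those labelled IL10+/+. Its groups did not overlap, and it differed by 0.50 (SE 0.11; limma, adjusted p = 0.406). Ifngr1, a receptor chain for interferon gamma next to Il22ra2, averaged 11.06 ± 0.16 in the arrays labelled IL10-/- and 11.14 ± 0.18 in the arrays labelled IL10+/+ (SD, n = 4 each). Of the other nearest tested genes of these chromosome 10 members (Olig3, Slc35d3, Pex7, 4933411E08Rik, Mdm1 and Gm9049), only Mdm1 had groups that did not overlap. Mdm1 differed by 0.37 (limma, adjusted p = 0.850). Non-overlap in the direction of Ifng and Mdm1 was found for 1.83% of all genes.

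Of the measured genes that act below the receptors, none passed the test. Only 0.0286% of all genes did, so a count of 0 in such short lists says little about them. Of 14 JAK-STAT genes, 4 were measured, with 1 positive and 3 negative differences, a median of -0.02 and 0 past the test. Stat3, the main transducer of IL-10, averaged 9.88 in the arrays labelled IL10-/- and 9.98 in the arrays labelled IL10+/+, a difference of -0.10. Socs3, its feedback inhibitor, differed by 0.06, and the related transducers Stat5a and Stat5b by -0.01 and -0.03. Of 16 genes known to be induced by IL-10 in macrophages, 6 were measured, with 2 positive and 4 negative differences, a median of -0.18 and 0 past the test. The stress-induced gene Ddit4 differed by -0.52 (SE 0.25) and the NF-kappaB inhibitor gene Tnfaip3 by -0.32 (SE 0.16). The arginase gene Arg1 differed by -0.20 (SE 0.21) and the corepressor gene Sbno2 by -0.16 (SE 0.17). Arg1 read 8.02 in IL10+/+ replicate 4, an array that stood apart, and 7.01 to 7.17 in the rest of that group. Ddit4 read 7.34 in IL10-/- replicate 2, which also stood apart, and 8.16 to 8.19 in the rest of that group. Socs3 belongs to both lists.

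Regulators of Il10 transcription in T cells gave no common direction. Of 35 such genes, 18 were measured, with 10 positive and 8 negative differences, a median of 0.03 and 0 past the test. Among all genes, 50.8% had a positive difference and 0.0286% passed the test. Prdm1 encodes Blimp-1, which Il10-producing Treg use, and averaged 8.48 ± 0.29 in the arrays labelled IL10-/- and 8.29 ± 0.27 in the arrays labelled IL10+/+ (SD, n = 4 each). Hif1a, the hypoxia factor, differed by 0.22 (SE 0.10). The activation-induced factor Egr2 and the IL-4 transducer Stat6 differed by -0.27 (SE 0.19) and -0.22 (SE 0.16). Both were lowest in IL10-/- replicate 2, an array that stood apart. There Egr2 read 8.80, against 9.48 to 9.79 in the rest of that group, and Stat6 read 9.08, against 9.68 to 9.70. The adjusted p of each regulator named here was 0.999 by limma.

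Markers of other cells that can make IL-10 or its relatives were read on the same arrays. All 6 measured B cell genes of 16 were on the positive side (median difference 0.14), as were 50.8% of all genes. Their mean level per array ran from 6.93 to 7.31 in the arrays labelled IL10-/- and from 6.81 to 7.00 in the arrays labelled IL10+/+. Within the IL10-/- group, Cr2, Ebf1 and Fcrla were highest in replicate 2, an array that stood apart. There they read 7.08, 6.92 and 6.69, against 5.82 to 6.33, 6.25 to 6.35 and 6.29 to 6.50 in the rest of that group. In that rest all of them averaged below the arrays labelled IL10+/+. Cd79b, Vpreb3 and Blk were highest in replicate 3 or 4 of that group. The 5 measured macrophage and monocyte genes of 18 had 2 positive differences. They ran from 6.77 to 7.44 in the arrays labelled IL10-/- and from 7.01 to 7.06 in the arrays labelled IL10+/+. The value of 7.44 was that of IL10-/- replicate 2, where all 5 genes were highest of their group. The rest of that group lay below all arrays labelled IL10+/+. Lyz2 read 8.20 in IL10-/- replicate 2 and 6.70 to 7.21 in the rest of that group. Plasma cell genes (3 of 7 measured) ran from 7.63 to 8.10 in the arrays labelled IL10-/- and from 7.56 to 7.95 in the arrays labelled IL10+/+. The only measured dendritic cell gene, Batf3, ran from 7.65 to 8.16 in the arrays labelled IL10-/- and from 7.45 to 7.83 in the arrays labelled IL10+/+. These ranges overlapped in each list, 0 markers passed the test, and their part in the Il10 difference was not tested. The 5 measured Treg genes of 15 ran from 9.72 to 10.11 in the arrays labelled IL10-/- and from 9.75 to 10.11 in the arrays labelled IL10+/+.

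For the cells that respond to IL-20 cytokines, 4 of 9 epithelial genes were measured, from 6.55 to 6.86 in the arrays labelled IL10-/- and from 6.47 to 6.69 in the arrays labelled IL10+/+. Among them Krt18, a keratin gene, had groups that did not overlap, as had 1.83% of all genes in that direction. It differed by 0.30 (limma, adjusted p = 0.866). Innate lymphoid and related cells, a source of IL-22, had 4 of 12 markers measured, from 7.94 to 8.03 in the arrays labelled IL10-/- and from 7.88 to 8.13 in the arrays labelled IL10+/+. T cell lineage genes (4 of 13 measured) ran from 10.95 to 11.03 in the arrays labelled IL10-/- and from 10.91 to 11.03 in those labelled IL10+/+. Granulocyte genes (7 of 12) and stromal genes (5 of 11) had medians of -0.13 and -0.10, and 0 of them passed the test. All 5 stromal genes were on the negative side.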

How the data were processed

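The series is a microarray study of 8 samples in 2 groups of 4. The deposited log2 values were made by the authors in Partek Genomics Suite by RMA background correction, correction for GC content and a mean over probes (series' design text). Affymetrix Expression Console is also listed, per the submitters' processing notes. No source used here gives program versions, a normalization between arrays or a genome build, and coordinates are left out. Of 16378 probe sets, 7358 had 1 gene in the platform annotation, 456 several and 8564 none. Symbols were updated by Entrez identifier to RefSeq (GRCm38.p6; 7310 matched), and the probe set with the highest mean was kept for each of 6986 genes. The table covers mainly chromosomes 1 and 10 to 15 (99.6% of placed genes), so lists were measured in part.

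Groups were compared with limma 3.58.1 (lmFit, eBayes) in R 4.3.3, with Benjamini-Hochberg adjustment over all genes at 0.05 and 95% intervals. The procedure was tested on simulated data. Single values were also compared by exact two-sided permutation over 70 assignments. The number of arrays and the spread between them limit the precision. No batch was given in the labels. Alternatives were other normalizations, other variance models, array weights, a filter on low values, a replicate block and left-out arrays.

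Named genes were the 7 members, the 4 genes of smallest p in each pathway list (past-threshold genes first), the nearest 2 tested genes on each side of a member cluster, and the 3 genes nearest to Il10 over arrays. Marker genes were named where a count was small, and Ctse and Efcab2 after their values were seen. Members and lists were chosen with earlier results of these data known.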

Additional observations from a re-analysis of the deposited data

Results flagged for a closer look

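In the within-array value of Il10 minus Il19, IL10-/- replicate 2 stood far from the other 3 arrays of its group. It is also among the arrays that stood apart by a narrower interquartile range, which this value does not cancel. The value of IL10-/- replicate 2 was 1.55, against 2.48 to 2.58. Its gap to the nearest array was 0.900 of the group's range, above the 95% critical value of Dixon's test for 4 samples. This was 1 of 20 group sets checked (7 genes and 3 pairs in both groups), and chance flags about 1 set in 20.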

How the results depend on the processing

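The Il10 difference stayed short of the threshold in 18 of 18 alternatives, with adjusted p from 0.0678 to 1.00 (limma or the equal-variance test). It ran from 0.86 (without IL10+/+ replicate 4) to 1.24 (without IL10-/- replicate 2). Its groups do not overlap, so leaving out, weighting or refitting the same values could not turn its direction. With changed values it was 1.10 (quantile normalization) and 1.05 (arrays centred on the median). Il19 (0.01 to 0.12) and Il24 (0.17 to 0.32) also kept their signs. Signs turned for members near 0. Il20 was -0.010 with quantile normalization, -0.0033 with array weights and -0.016 to 0.12 with 1 array left out. Il20ra was -0.038 with quantile normalization, -0.0065 with arrays centred on the median, -0.040 with array weights, -0.043 without both arrays that stood apart, and -0.033 to 0.073 with 1 array left out. With 1 array left out, Il22 ran from -0.036 to 0.34 and Il22ra2 from -0.14 to 0.074. The cause was not tested. Il10 minus Il19, Il20 and Il24 ran from 0.77 to 1.23, 0.79 to 1.22 and 0.54 to 1.07 with 1 array left out, none past the threshold. Without both arrays that stood apart, 3 against 3 arrays cannot give a permutation p below 0.1.

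Genes past the threshold numbered 2, and 1 with arrays centred on the median, array weights, an equal-variance test per gene, the replicate block, without both arrays that stood apart, or with all probe sets tested. They were 3 (Ctse, Efcab2 and Hesx1) with trend and robust settings of eBayes. With 1 array left out there were 1 to 4. Without IL10-/- replicate 3 they were Ctse, Efcab2, Hesx1 and Mir3473c. No family member was among them in any setting.

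With the replicate number of the labels as a block, Il10 differed by 1.06 (adjusted p = 0.721). Deviations of same-numbered arrays correlated at -0.32 to 0.05, and 0 of 4 arrays correlated best with its own number. The arrays that stood apart carry different numbers and weigh on these correlations. This check therefore cannot tell whether same-numbered arrays shared a day or batch. The filter on low values removed Il20, Il22, Il20ra and Il22ra2.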
